A study of Homo sapiens with 6 samples.

Results

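Long intergenic noncoding RNAs (lincRNAs) are transcripts with little or no protein-coding potential, made from genes that lie mostly between protein-coding genes. The genes described here carry the annotated biotype lincRNA, have no symbol of the SNHG series of small nucleolar RNA hosts, and reached a mean of at least 3 CPM over the 6 libraries, where CPM is a gene's read count per 1e+06 reads of its library. They were thus selected on their mean level over both groups, and that level is given only as a description. They number 167 of the 58735 genes in the count table, and of 7620 lincRNA genes without an SNHG symbol. The 6 libraries came from MOLM-13, an established human acute myeloid leukaemia line with a rearranged KMT2A gene, labelled WT for genotype. Control cells (n = 3) were untreated, and the other cells (n = 3) received 3.5 nM of 8p, a synthetic small molecule that the labels name a dual inhibitor of the tyrosine kinase receptor RET and of CDK8, with an IC50 of 7 nM. Both groups were incubated for 48 h, and the replicates are described as independent biological ones of this single line. Whether controls received the solvent of 8p is not stated, so 8p and any solvent cannot be told apart.

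Most lincRNAs are made by RNA polymerase II, capped, and often spliced and polyadenylated like messenger RNA, and many stay in the nucleus, where the RNA exosome degrades a large part of them. MALAT1 and NEAT1 are nuclear RNAs: MALAT1 gathers in splicing speckles and NEAT1 is the scaffold of paraspeckles. NORAD is a cytoplasmic RNA that binds Pumilio proteins. Other lincRNA genes, such as MIR155HG and MIR34AHG, serve as the primary transcripts of microRNAs, short RNAs that repress messengers through a seed at their bases 2 to 8. PVT1 and CCDC26 lie in the region downstream of MYC and have known links to leukaemia, and PURPL and MIR34AHG are targets of the tumour suppressor p53.

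The sequences of a few members show what these RNAs carry. MALAT1 (chromosome 11, 65497688 to 65506516, plus strand, hg38) ends without a poly(A) tail after an A-rich tract that folds with U-rich stretches ahead of it. That end is shown because the labels name poly(A) capture or rRNA removal without saying which was used. It holds 13 consecutive A bases (capitals), at chr11:65505986-65506124 of the plus strand, taken from the annotated GENCODE 29 transcript.
MALAT1 3′ tract: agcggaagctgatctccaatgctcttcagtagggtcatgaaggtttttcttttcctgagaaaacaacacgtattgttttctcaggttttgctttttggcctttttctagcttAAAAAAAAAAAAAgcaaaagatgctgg
NORAD (chromosome 20, 36045622 to 36050960, minus strand) and HCG11 (chromosome 6, 26521709 to 26527404, plus strand) are single-exon genes whose transcripts aligned over 4660 bases at 90.4% identity. Both are dense in the Pumilio motif TGTANATA (searched on the transcript strand only). NORAD holds 15 copies in 5339 bases and HCG11 16 copies in 5696 bases, while 140 of the 167 member transcripts hold none. FTX followed with 7 copies, NEAT1 with 6 and AL021368.2 with 5, in longer transcripts for FTX and NEAT1. The windows below centre on motif pairs (capitals) whose starts lie 9 bases apart.
NORAD, chr20:36049488-36049534, minus strand: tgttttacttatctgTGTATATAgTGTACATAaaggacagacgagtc
NORAD, chr20:36048291-36048337, minus strand: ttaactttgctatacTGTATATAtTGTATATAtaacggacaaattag
HCG11, chr6:26523128-26523174, plus strand: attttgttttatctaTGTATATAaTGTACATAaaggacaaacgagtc
HCG11, chr6:26523735-26523781, plus strand: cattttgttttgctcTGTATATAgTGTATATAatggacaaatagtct
The first NORAD window and the first HCG11 window carry the same pair of motif variants, and so do the second windows of both.

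**Figure D1:**
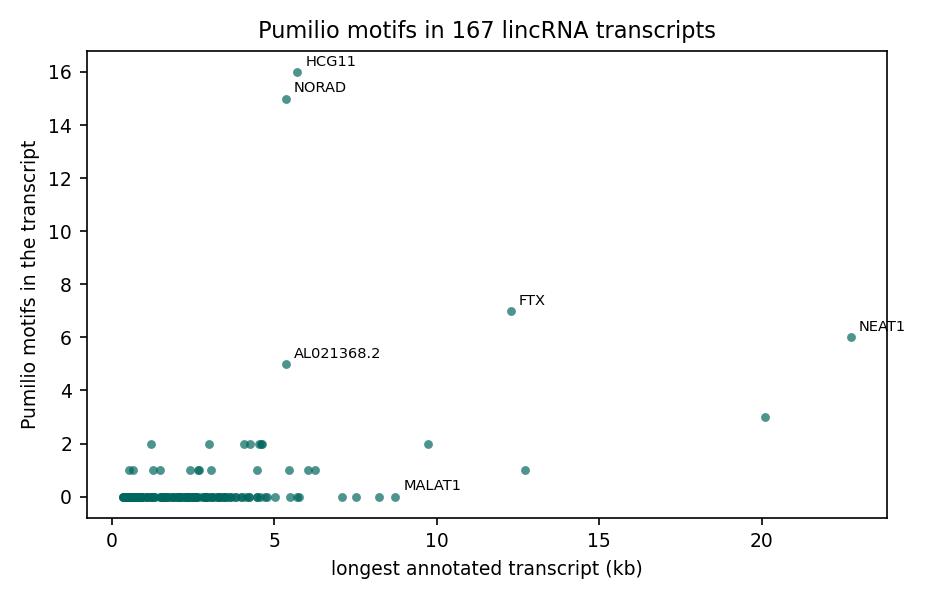
Number of Pumilio motifs (TGTANATA) in the longest annotated transcript of each of the 167 genes, against the transcript's length in kb. Points are genes. NORAD with 15 copies and HCG11 with 16 stand above all others at a length of under 6 kb, and MALAT1 has none.

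The microRNAs are shown because the members that hold them moved in both directions. RefSeq (GRCh38.p14) places 26 mature microRNAs, counting miR-4435 once for each host, with 23 distinct seeds in 9 of the member genes searched. Members on the chromosome of MYC, PVT1 and CCDC26 among them, were not searched, so the 9 are not a full count. Those of the hosts described below are given with the seed in capitals.
hsa-miR-34a-5p (MIR34AHG): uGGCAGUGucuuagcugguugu
hsa-miR-22-3p (MIR22HG): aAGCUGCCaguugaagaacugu
hsa-miR-155-5p (MIR155HG): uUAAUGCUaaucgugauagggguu
hsa-let-7a-5p (MIRLET7BHG): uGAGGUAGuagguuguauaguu
hsa-let-7b-5p (MIRLET7BHG): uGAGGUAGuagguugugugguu
hsa-miR-374b-5p (FTX): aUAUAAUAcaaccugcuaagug
hsa-miR-421 (FTX): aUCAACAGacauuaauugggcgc
hsa-miR-9-5p (MIR9-3HG): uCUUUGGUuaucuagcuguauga
hsa-miR-570-3p (MUC20-OT1): cGAAAACAgcaauuaccuuugc
hsa-miR-4435 (CYTOR and MIR4435-2HG): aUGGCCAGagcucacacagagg
The let-7a and let-7b forms share the seed GAGGUAG, and miR-4435 is encoded by both CYTOR and MIR4435-2HG. The libraries measured the host transcripts and not the mature microRNAs.

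Promoters of 300 bases (250 before to 50 after the start) from RefSeq, build GRCh38.p14, matched 56 members by symbol, and 34 of them began within 100 bases of the annotated gene start. These windows were searched on both strands for the E-box CACGTG, the CREB site TGACGTCA, the ETS site CCGGAAGT, the E2F site TTTCGCGC, the GC box GGGCGG, the CCAAT box, the TATA box TATAAA and the p53 consensus decamer. PURPL (chromosome 5, 27472292 to 27496401, plus strand) held a pair of p53 decamers with no base between them. Such a pair was found in 6 of all 35116 promoters (0.0171%), and a single decamer in 6.63%. OLMALINC (chromosome 10, 100373513 to 100454043, plus strand) held 2 copies of CCAAT, found at least once in 34.6% of all promoters, and 1 p53 decamer. NORAD held CACGTG (7.26% of all promoters) and CCGGAAGT (4.14%), the second on the other strand. The windows are shown for a member that rose, a member that fell and NORAD, with the searched motifs other than GGGCGG in capitals.
PURPL, chr5:27472042-27472341, plus strand: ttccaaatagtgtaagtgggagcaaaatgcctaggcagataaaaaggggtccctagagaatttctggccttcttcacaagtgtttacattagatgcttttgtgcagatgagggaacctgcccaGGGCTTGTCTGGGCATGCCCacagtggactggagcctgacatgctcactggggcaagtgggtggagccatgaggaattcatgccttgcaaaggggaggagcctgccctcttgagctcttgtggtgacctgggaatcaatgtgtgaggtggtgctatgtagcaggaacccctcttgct
OLMALINC, chr10:100373326-100373625, plus strand: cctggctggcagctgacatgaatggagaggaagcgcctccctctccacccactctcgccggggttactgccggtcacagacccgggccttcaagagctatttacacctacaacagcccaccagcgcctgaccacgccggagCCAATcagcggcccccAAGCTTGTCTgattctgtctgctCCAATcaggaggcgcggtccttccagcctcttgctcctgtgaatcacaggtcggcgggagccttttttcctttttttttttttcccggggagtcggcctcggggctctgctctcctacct
NORAD, chr20:36050911-36051210, minus strand: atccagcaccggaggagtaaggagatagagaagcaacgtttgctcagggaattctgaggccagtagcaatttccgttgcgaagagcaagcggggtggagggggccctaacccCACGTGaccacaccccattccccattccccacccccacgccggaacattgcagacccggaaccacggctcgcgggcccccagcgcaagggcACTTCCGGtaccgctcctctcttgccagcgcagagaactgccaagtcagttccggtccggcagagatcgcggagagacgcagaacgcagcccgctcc
Among the 25 matched members that rose with 8p, CCAAT was present in 8, GGGCGG in 15 (45% of all promoters), CACGTG in 2 and CCGGAAGT in 2. TATAAA, present in 11.5% of all promoters, was in none of the 34, and TTTCGCGC (0.515%) was also in none. A match is a run of letters and not evidence of binding.

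With 8p, most of these lincRNA genes rose. In the fit over all 13822 genes tested (edgeR quasi-likelihood test, called at a Benjamini-Hochberg adjusted p under 0.05), 120 members were higher, 23 were lower and 24 were not called. That is 71.9% of members higher and 13.8% lower, where 37.9% of all genes tested were higher and 36.9% were lower. Among the 10794 tested genes with a mean CPM of at least 3, the same cut as the members, 79.2% were called, with 36.2% higher and 43.1% lower. The median log2 fold change of the members was 0.75 (quartiles 0.25 and 1.56), beside 0.03 for all genes tested and -0.08 for those at 3 CPM or more. The 3 libraries of each group did not overlap in 114 members that were higher and 25 that were lower. Groups without overlap and higher with 8p made up 39.1% of all genes tested, and lower ones 37.5% (76.6% in all). At 3 CPM or more these shares were 37.2% and 43.3% (80.5% in all). A change of at least 2-fold was seen in 69 members that rose and 14 that fell, and of at least 8-fold in 8 and 2.

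**Figure D2:**
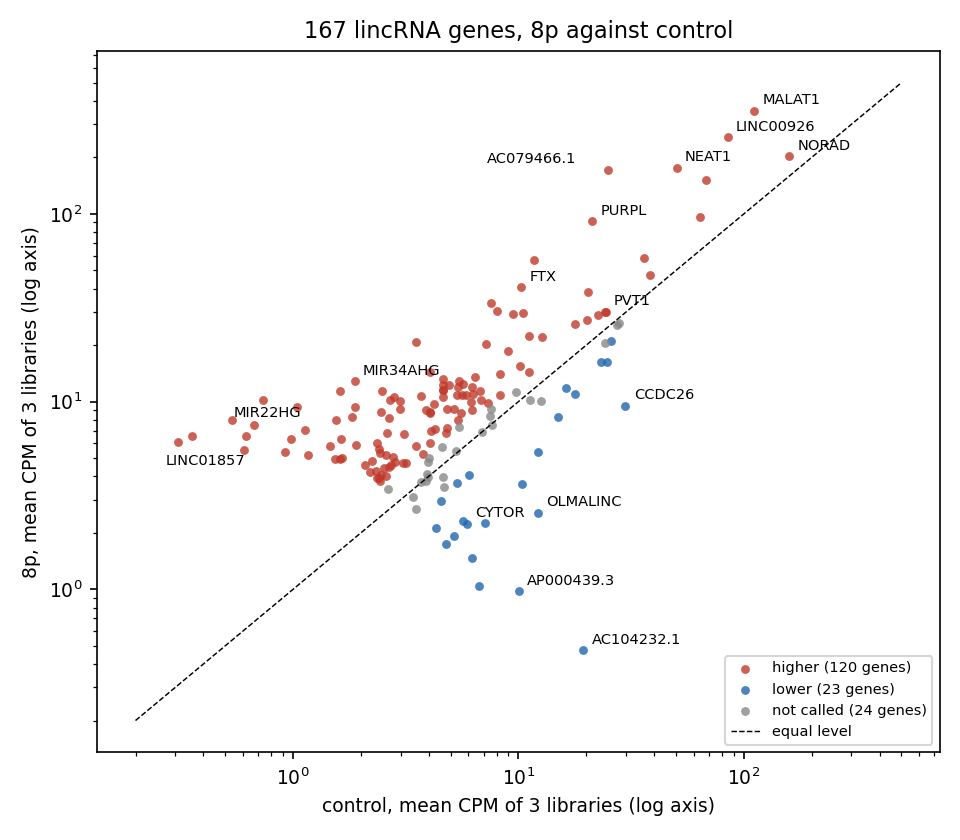
Mean CPM of each of the 167 lincRNA genes in the 3 8p libraries against that in the 3 control libraries, both on log axes, with the line of equal level. Of the points, 120 are genes called higher (red), 23 called lower (blue) and 24 not called (grey), and AC104232.1 lies farthest under the line.

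The rule used the mean of both groups, and many members reached it through a single group. Of the 167 members, 50 reached 3 CPM in the 8p group only, and 49 of those were higher. A further 13 reached it in the control group only, of which 12 were lower. Such members lie above the cut in a single group, so the rule itself favoured a difference in them. Of the 104 members at 3 CPM or more in both groups, 71 were higher and 11 lower, with a median log2 fold change of 0.59. The members nearest the cut were LINC01637 (mean 3.03 CPM), AC027020.2 (3.07) and AP002360.1 (3.10), and just outside it lay AC246817.1 (2.96), LINC01176 (2.94) and AC104964.3 (2.88).

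Together the members took 0.171%, 0.166% and 0.172% of all counts in the control libraries and 0.314%, 0.331% and 0.317% in the 8p libraries. The groups did not overlap, and the mean went from 0.170% ± 0.00281 to 0.321% ± 0.00879 (SD, n = 3). Without MALAT1 and NEAT1 the means were 0.153% and 0.267%. The 24 members not called took 0.0200% and 0.0197%. Length-corrected levels (CPM per kb of exon) spread widely, with AC084033.3 at a mean of 83.8 over all libraries, LINC00926 at 46.3, NORAD at 33.9, MALAT1 at 26.4, PURPL at 21.3 and NEAT1 at 4.98.

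The nuclear architectural RNAs both rose. MALAT1 stood at 95.9, 99.7 and 138 CPM in controls and at 334, 388 and 343 CPM with 8p. No 8p library overlapped a control, and control replicate 3 was the highest of its group. Its log2 fold change was 1.66 (SE 0.12, adjusted p = 3.86e-09, edgeR). NEAT1 (chromosome 11, 65422774 to 65445540, plus strand) had 50.5, 51.2 and 49.2 CPM in controls and 167, 193 and 169 CPM with 8p. The controls were tightly grouped, the 8p values lay far above them, and the log2 fold change was 1.80 (SE 0.07, adjusted p = 4.42e-12, edgeR). Per kb of exon, NEAT1 went from 2.21 to 7.75 and MALAT1 from 12.6 to 40.2.

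The RNAs dense in Pumilio motifs rose as well. NORAD had 162, 158 and 157 CPM in controls and 191, 216 and 202 CPM with 8p, with no overlap between groups. Its log2 fold change was 0.34 (SE 0.06, adjusted p = 0.000173, edgeR). HCG11 had 39.3, 33.7 and 35.4 CPM in controls and 51.7, 67.7 and 55.3 CPM with 8p. All 8p libraries were above all controls, with replicate 2 the highest, and the log2 fold change was 0.68 (SE 0.10, adjusted p = 1.25e-05, edgeR). HCG11 resembles NORAD in sequence, as shown above, and neither gene met the criterion for a near-identical copy (at least 95% identity over 50% of the transcript). PUM2, a protein that binds the motif, had a log2 fold change near 0, at 0.03 (adjusted p = 0.735, edgeR).

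Among the other members with the most counts, LINC00926 (chromosome 15, 57300365 to 57307769, plus strand) stood at 86.0, 86.6 and 81.8 CPM in controls and at 256, 253 and 257 CPM with 8p. Each group was tight and the groups were far apart, and the log2 fold change was 1.58 (SE 0.07, adjusted p = 7.21e-12, edgeR). This gene starts 1084 bases past the end of TCF12, a transcription factor gene on the same strand, whose log2 fold change was 0.24. AC079466.1 (chromosome 19, 28606688 to 28615229, plus strand) went from 28.4, 25.2 and 21.1 CPM to 182, 164 and 169 CPM. It was the steepest riser among the 10 members with the highest mean CPM, and the log2 fold change was 2.78 (SE 0.10, adjusted p = 1.24e-12, edgeR). Its closest protein-coding start, that of UQCRFS1, is 606853 bases away. EPB41L4A-AS1, whose span holds the small nucleolar RNA SNORA13, had 63.2, 60.1 and 68.4 CPM in controls and 84.2, 118 and 85.6 CPM with 8p. The groups did not overlap, 8p replicate 2 was the highest, and the log2 fold change was 0.57. AC084033.3 had a log2 fold change of 1.15, but it overlaps ATP23 on the other strand, and without a known strand setting its reads cannot be told apart from those of that gene. EBLN3P was higher by 0.29 on the log2 scale, a call lost with no filter on low counts (adjusted p = 0.142, edgeR).

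**Figure D3:**
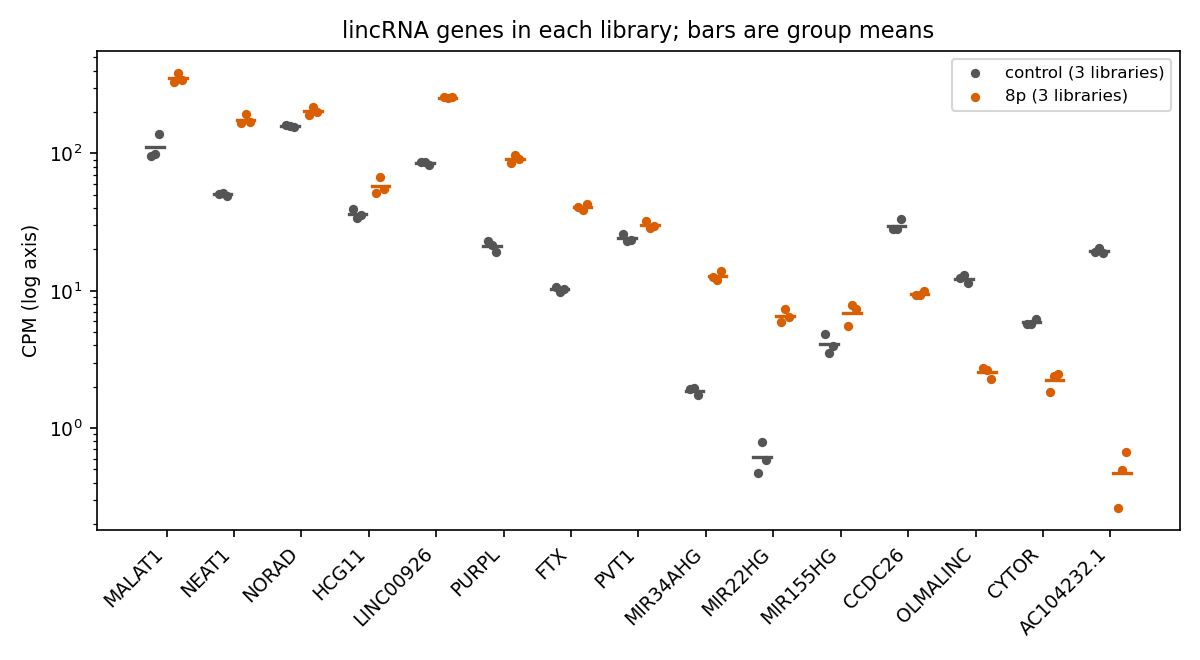
CPM (log axis) of 15 lincRNA genes in each of the 3 control libraries (grey) and 3 8p libraries (orange), with bars at the group means. The groups are apart in each of the 15 genes. The group means lie widest apart in AC104232.1, which falls from about 19 to under 1 CPM, and closest in NORAD and PVT1. Single libraries of the groups also come close in MIR155HG.

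The p53 targets PURPL and MIR34AHG both rose. PURPL, an RNA that restrains p53 protein levels and is itself a p53 target, had 23.1, 21.4 and 19.2 CPM in controls and 85.2, 97.6 and 91.3 CPM with 8p. The 8p libraries were all above the controls, and the log2 fold change was 2.09 (SE 0.09, adjusted p = 6.94e-12, edgeR). MIR34AHG, the host of miR-34a, went from 1.92, 1.97 and 1.75 CPM to 12.6, 12.0 and 13.9 CPM. It stayed under 2 CPM in each control and above 11 CPM in each 8p library, so that it passed the rule through the 8p group only, and the log2 fold change was 2.76 (SE 0.18, adjusted p = 1.03e-09, edgeR). The p53 protein was not measured.

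The microRNA hosts moved both ways. MIR22HG had 0.468, 0.796 and 0.584 CPM in controls and 5.90, 7.40 and 6.48 CPM with 8p, and differed by 3.40 on the log2 scale (SE 0.28, adjusted p = 1.85e-08, edgeR). It overlaps WDR81 on the other strand, which was also higher (log2 fold change 1.67), so its reads are uncertain. FTX, an RNA gene of the X inactivation centre that hosts miR-374, miR-421 and miR-545, went from 10.7, 9.79 and 10.3 CPM to 40.9, 38.9 and 42.8 CPM. The groups were well apart, and the log2 fold change was 1.98 (SE 0.10, adjusted p = 9.13e-11, edgeR).
MIR155HG, the host of the immune-cell microRNA miR-155, had 4.85, 3.51 and 3.93 CPM in controls and 5.57, 7.83 and 7.41 CPM with 8p. The lowest 8p library was above the highest control by less than 1 CPM, and the log2 fold change was 0.75 (SE 0.20, adjusted p = 0.00292, edgeR). MUC20-OT1 was higher by 1.04 on the log2 scale. MIR9-3HG was higher by 0.29 (adjusted p = 0.0205, edgeR), and its call was lost in 4 of 15 alternatives, with adjusted p from 0.0506 to 0.224.
MIRLET7BHG, the host of let-7a and let-7b copies, had 1.92, 2.62 and 1.70 CPM in controls and 6.75, 4.69 and 2.40 CPM with 8p. Here the groups overlapped, since 8p replicate 3 was below control replicate 2. Its log2 fold change of 1.14 passed in the full fit (adjusted p = 0.00543, edgeR) and not without 8p replicate 1, where it was 0.73 (adjusted p = 0.0600). It passed the rule through the 8p group only, and PRR34 and PRR34-AS1 overlap it on the other strand.
The hosts that fell share miR-4435, and both passed the rule through the control group only, where they are high. CYTOR, the cytoskeleton regulator RNA, went from 5.75, 5.71 and 6.21 CPM to 1.84, 2.41 and 2.47 CPM, and its log2 fold change was -1.40 (SE 0.21, adjusted p = 2.19e-05, edgeR). MIR4435-2HG, known in mice as Morrbid for its role in myeloid cell survival, went from 5.58, 5.15 and 4.83 CPM to 1.97, 1.73 and 2.07 CPM, with a log2 fold change of -1.44. Both groups were apart in each gene. CYTOR and MIR4435-2HG met the criterion for near-identical copies, at least 95% identity over 50% of an annotated transcript. Reads may thus have been split or exchanged between them, and MIR4435-2HG overlaps BCL2L11 on the other strand.

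In the region downstream of MYC the members went apart. PVT1, a gene often amplified together with MYC in cancers, had 26.02, 23.0 and 23.6 CPM in controls and 32.1, 28.6 and 29.8 CPM with 8p. Its log2 fold change of 0.31 (SE 0.10, adjusted p = 0.00989, edgeR) was lost with no filter on low counts, without control replicate 2 and without 8p replicate 1, where adjusted p ran from 0.0721 to 0.161. CCDC26, a locus known for copy number gains in acute myeloid leukaemia, had 28.1, 28.0 and 33.3 CPM in controls and 9.25, 9.25 and 10.02 CPM with 8p. Its 8p libraries all lay under the controls, and its log2 fold change was -1.66 (SE 0.12, adjusted p = 6.39e-09, edgeR). MYC itself, whose start is 59099 bases from that of PVT1, had a log2 fold change of -2.35.

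The largest rises started from low levels. LINC01857 went from 0.128, 0.375 and 0.425 CPM to 6.62, 6.72 and 4.88 CPM, and differed by 4.30 on the log2 scale (SE 0.36, adjusted p = 2.58e-08, edgeR). LINC02019 went from 0.766, 0.515 and 0.319 CPM to 7.93, 7.22 and 8.88 CPM (log2 fold change 3.85). AC110285.2 went from 0.383, 0.702 and 1.11 CPM to 10.2, 9.99 and 10.3 CPM (3.81). All 3 reached 3 CPM through the 8p group only, as did the other 5 of the 8 largest rises. Those 5 were LINC02340 at 4.21, AC004253.1 at 3.47, MIR22HG at 3.40, LINC02035 at 3.18 and AC027020.2 at 3.17 on the log2 scale. LINC02340 overlaps LINC00412 on its own strand and AC004253.1 overlaps UTP6 on the other, so their reads are uncertain. AC027020.2 was uneven with 8p, at 8.00, 3.95 and 4.68 CPM, though each value was above the control maximum of 0.702 CPM.

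Fewer members fell than rose. Of the 8 largest falls, all but CCDC26 and AL355338.1 reached 3 CPM through the control group only, so the rule favoured a fall in them. AC104232.1 (chromosome 8, 64801236 to 64817573, minus strand) had 19.1, 20.4 and 18.7 CPM in controls and 0.262, 0.493 and 0.668 CPM with 8p. Its log2 fold change was -5.34 (SE 0.22, adjusted p = 8.55e-12, edgeR), the largest in size among all 167 members. AP000439.3 went from 10.01, 8.43 and 11.7 CPM to 0.525, 1.48 and 0.935 CPM, with a log2 fold change of -3.35. AL356414.1 went from 6.34, 7.26 and 6.48 CPM to 1.11, 0.679 and 1.34 CPM (log2 fold change -2.69).
OLMALINC, an RNA described in oligodendrocytes and in the control of its neighbour SCD, went from 12.4, 12.9 and 11.4 CPM to 2.75, 2.65 and 2.27 CPM. The groups were far apart, and the log2 fold change was -2.26 (SE 0.17, adjusted p = 6.68e-09, edgeR). SCD, the stearoyl-CoA desaturase gene whose start lies 26389 bases away on the same strand, had a log2 fold change of -2.60. The other 4 of the 8 largest falls were AC099568.2 at -2.09, MGC12916 at -1.67, CCDC26 at -1.66 and AL355338.1 at -1.52. MGC12916 overlaps HS3ST3B1 on the same strand, so its reads are uncertain.

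Of the 24 members not called, CRNDE, a gene known to be active in leukaemias and colorectal tumours, had 26.8, 24.8 and 30.6 CPM in controls and 26.2, 31.6 and 19.3 CPM with 8p. The groups overlapped, and the log2 fold change was -0.10 (SE 0.14, adjusted p = 0.528, edgeR). CRNDE was picked out after its values were seen. LINC00528, a member of the myeloid and immune list, had 3.49, 4.12 and 4.14 CPM in controls and 4.66, 3.02 and 4.61 CPM with 8p. It likewise overlapped (log2 fold change 0.06, SE 0.23, adjusted p = 0.828, edgeR).

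Many lincRNA genes start close to a protein-coding gene on the other strand. Of the members, 43 have a start within 1 kb of a protein-coding start on the other strand, and all 43 partners were tested. The distance was taken in either direction, so pairs that overlap, such as MIR22HG with WDR81, are included. Without a known strand setting, the reads of such pairs cannot be told apart. In 12 pairs both genes were higher and in 1 both were lower, while 8 pairs had a higher lincRNA with a lower partner and 1 the reverse. In 11 further pairs the lincRNA was higher and the partner not called, in 2 it was lower and the partner not called, and in 8 the lincRNA was not called. Of the 43 partners, 13 were higher and 15 lower, with a median log2 fold change of -0.06. The shares over all genes tested were 37.9% higher and 36.9% lower. Of the 43 lincRNAs themselves, 31 were higher (72.1%) and 4 lower (9.30%). These 43 pool members at 3 CPM in both groups with others, such as MIR22HG, that reached it in a single group. The rule favoured a difference in the latter, and the 43 were not split by this. Across the 43 pairs, Pearson's r was 0.22 and Spearman's rho 0.24, where all points share the same 6 libraries.

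**Figure D4:**
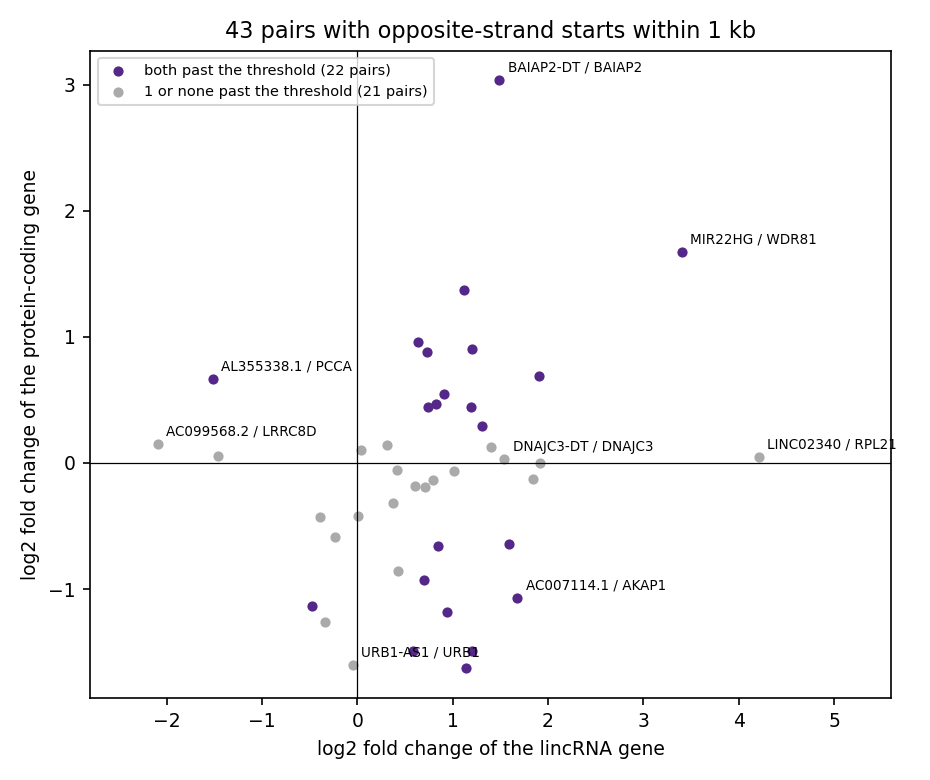
Log2 fold change (8p against control) of 43 lincRNA genes against that of the protein-coding gene whose start lies within 1 kb on the other strand. Pairs that overlap are included, as are members that reached 3 CPM in a single group only. Purple points are the 22 pairs in which both genes passed the threshold, 13 of them moving the same way and 9 opposite ways.

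Examples of these pairs had the following values. BAIAP2-DT had 11.7, 10.96 and 8.60 CPM in controls and 30.9, 27.9 and 29.6 CPM with 8p (log2 fold change 1.49), and BAIAP2, an adaptor of actin regulation that starts 241 bases away, rose by 3.03. BISPR rose by 1.31 and BST2, the antiviral membrane protein tetherin, by 0.30. The BST2 call was lost in 4 alternatives, with adjusted p from 0.0614 to 0.111, and BISPR overlaps MVB12A on its own strand.
AC007114.1 went from 1.92, 1.22 and 1.49 CPM to 7.54, 3.02 and 4.34 CPM (log2 fold change 1.68), while AKAP1, a mitochondrial kinase anchor, stood at -1.07. AL355338.1 went from 10.2, 10.8 and 9.98 CPM to 5.05, 2.41 and 3.41 CPM, while PCCA, a subunit of propionyl-CoA carboxylase whose start is 167 bases away, rose by 0.66.
DNAJC3-DT had 2.94, 3.18 and 4.94 CPM in controls and 9.90, 13.3 and 9.02 CPM with 8p, without overlap, and a log2 fold change of 1.54. DNAJC3, a chaperone of the endoplasmic reticulum starting 214 bases away, stood at 0.03 (not called). LINC02340, whose start is 21 bases from that of the ribosomal protein gene RPL21, rose by 4.21 while RPL21 stood at 0.05 (not called). The differences between these partners' fold changes were not tested. SRP14-AS1 of the pairs above is also among 14 members that start within 5 kb past the end of a protein-coding gene on the same strand. Of these, 12 were higher, with 7 higher partners such as CTC1 (0.47, beside LINC00324 at 2.13) and 4 lower ones such as TFAP4 (-1.52, beside LINC01569 at 1.59). Over all genes tested, 37.9% were higher and 36.9% lower. Reads running on past those ends and the lincRNAs' own reads cannot be told apart there. The 14 were also not split by the group through which they reached 3 CPM.

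Higher members outnumbered lower ones in each class of annotated structure counted here. These classes pool members at 3 CPM in both groups with the 50 and 13 that reached it only with 8p or only in controls. The rule favoured a difference in the latter, and the classes were not split by this. Among all genes tested at 3 CPM or more, 36.2% were higher and 43.1% lower. Of 57 members with a single exon 42 were higher and 8 lower, and of 110 with a spliced transcript 78 were higher and 15 lower. Of 82 that overlap no other gene, 62 were higher and 10 lower (median log2 fold change 0.80). In 45 members an overlapping gene held at least 10% as many counts, and 29 of them were higher and 6 lower. By level, 19 of 24 members at 20 CPM or more were higher and 2 lower, and 41 of 62 at 3 to 5 CPM were higher and 10 lower. Spearman's rho of the log2 fold change was 0.04 with exon length and -0.04 with mean CPM across the 167 genes, which are not independent replicates. Chromosome 17 held 19 members, 15 of them higher and 2 lower.

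Other noncoding classes at 3 CPM or more are given beside the members as a description. Of 160 antisense genes 77 were higher and 32 lower (median log2 fold change 0.41), and of 61 processed transcripts 31 were higher and 14 lower (0.43). Of 9991 protein-coding genes 3468 were higher and 4490 lower (-0.12). The 4 SNHG lincRNA genes at this level, left out by the rule, counted 1 higher and 2 lower. Whether the members differ from these classes was not tested.

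**Figure D5:**
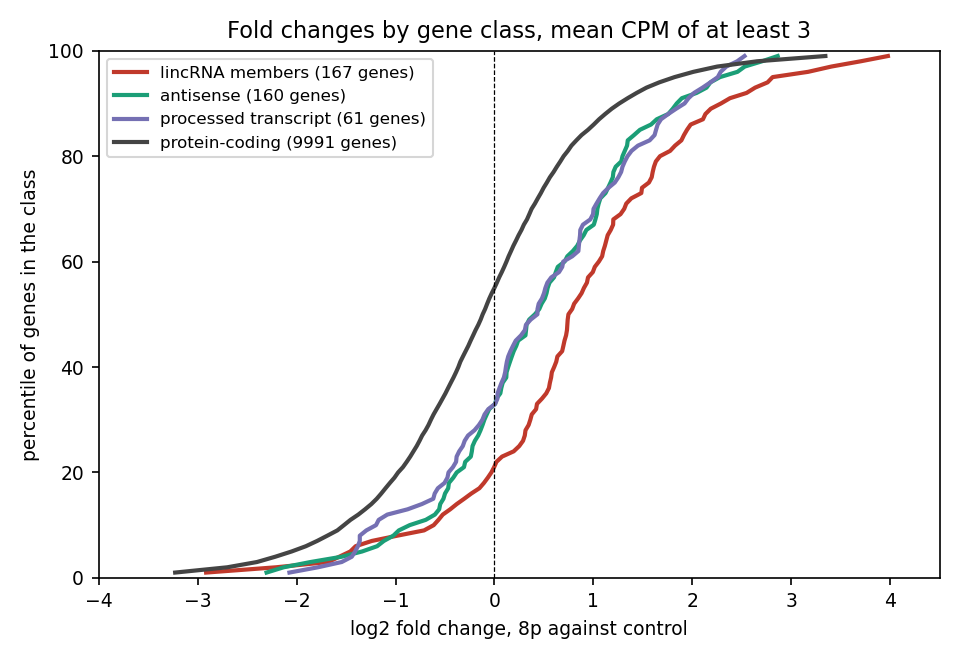
Percentiles of the log2 fold change (8p against control) among genes with a mean CPM of at least 3, for the 167 lincRNA genes (red), 160 antisense genes (green), 61 processed transcripts (purple) and 9991 protein-coding genes (black). The lincRNA curve lies farthest to the right over most of its length, with its middle at 0.75.

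Among genes whose proteins make, bind or degrade noncoding RNA, most members were lower in 3 lists and fewer in the others. Of all genes tested, 36.9% were lower, 37.9% higher and 74.7% called in either direction. Of 21 tested genes of the nuclear RNA exosome and its adaptors, 15 were lower and 1 higher (median log2 fold change -0.88). MPHOSPH6, an exosome cofactor, had 46.5, 41.4 and 47.1 CPM in controls and 8.59, 7.83 and 10.4 CPM with 8p (log2 fold change -2.34). EXOSC5, a core subunit, stood at -1.94. The 5 not called were EXOSC1 (-0.15), PABPN1 (-0.05), RBM7 (0.03), ZFC3H1 (0.06) and ZCCHC8 (0.11). All of these but EXOSC1 are adaptor genes, while the adaptor helicase MTREX was lower (-0.97). Of 18 Integrator and cap-binding genes, 17 were lower and none higher (median -0.82), with SRRT, an RNA 5′ end adaptor also called ARS2, at -1.20 and the Integrator subunit INTS12 at -1.02.
Of 15 tested paraspeckle protein genes, 14 were lower (median -0.77), among them RBM14 at -2.09 and SMARCA4 at -1.58, in the libraries where NEAT1 was higher. The exception, MATR3, is listed in 2 rows of the table, of which 1 was tested at 1.02 CPM in controls and 3.39 CPM with 8p (log2 fold change 1.71).
Of 10 microRNA processing genes 4 were higher and 5 lower, with AGO4, an Argonaute protein, at 1.24 and XPO5, the exporter of precursor microRNAs, at -1.48. Of 11 nonsense-mediated decay genes 3 were higher and 5 lower, with the exonuclease XRN1 at 1.03 and SMG9 at -1.07. Of 9 genes for m6A writers and a nuclear reader 4 were lower, with VIRMA at -0.61. Only 2 of these 9 were called without control replicate 1, and CBLL1 and RBM15B lost their calls under upper quartile factors (adjusted p = 0.580 and 0.518, edgeR). Whether these changes bear on the lincRNAs was not tested.

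Some facts of the libraries moved with the groups. The control libraries held 18834611 to 23485628 counts and the 8p libraries 14972069 to 16210861, so low counts were less precise with 8p. Mitochondrially encoded genes took 1.64% to 1.91% of counts in controls and 6.42% to 10.004% with 8p, and 8p replicate 2, at 6.42%, stood apart on the second principal component. Left out, it gave log2 fold changes of the same sign for every called member, but 10 of their calls were lost. Myeloid markers summed to 1794 to 1975 CPM in controls and 4823 to 5289 CPM with 8p, with 5 of 7 tested genes higher and 2 lower. LYZ led them, and CD68 was near 0. Markers of T and NK cells (34.7 to 36.7, then 34.0 to 44.0 CPM), B cells (29.2 to 34.4, then 41.7 to 52.3), epithelium (9.16 to 9.74, then 4.57 to 6.03) and erythroid or megakaryocytic cells (1.38 to 1.92, then 2.61 to 3.39) stayed low. Fibroblast markers went from 0.743 to 1.58 CPM to 25.5 to 39.4 CPM through COL1A1, with COL1A2, COL3A1 and DCN at 0, and endothelial ones from 105 to 114 CPM to 526 to 573 CPM through PECAM1, with CDH5 and KDR at 0. The part of depth, mitochondrial share and these markers in the lincRNA results was not tested.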

How the data were processed

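Messenger RNA was sequenced from 6 MOLM-13 libraries. The authors deposited raw read counts per gene, whole numbers with no normalization. Per the submitters' processing notes, alignment and counting used build hg38 with HISAT2 (version 2.0.5) and featureCounts (version 1.5.0-p3), and edgeR 3.22.5 and DESeq2 1.20.0 are also listed. The strand setting was not found in the labels or headers, and the labels name poly(A) capture or rRNA removal without saying which. Gene positions equalled those of GENCODE 29 for all 58735 genes.

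Here, counts were tested in R 4.3.3 with edgeR 4.0.16 (TMM factors, filterByExpr, quasi-likelihood F test with group as the only term, Benjamini-Hochberg adjustment over 13822 genes). The log2 fold changes of edgeR carry a standard error, their size over the root of F. Printed levels are plain CPM without TMM factors. The members and gene lists were chosen with earlier results of these data known, the motifs too. Named genes were the 10 members with the highest mean CPM, the 8 largest rises and 8 largest falls without overlap between groups, the members of role lists (nuclear structural RNA, microRNA hosts, snoRNA hosts, MYC locus, p53, X inactivation centre, Pumilio binding, myeloid and immune), members at the cut, the leading 2 of each RNA machinery list, and partners within 1 kb. MIR34AHG, MIR9-3HG and MUC20-OT1 were added because they hold microRNAs in RefSeq. The downstream pairs, UQCRFS1, MYC and SCD were named after their values were seen. A few results that the rule would name are not reported here. Copies were sought with minimap2 2.31, and NORAD was aligned to HCG11 with blastn 2.17.0.

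Alternatives were DESeq2 1.42.0, limma-voom (limma 3.58.1), other scalings and filters, a replicate block, leaving out 1 library at a time, a threshold of 0.01 and other member rules. No 2 libraries agreed within sampling noise. No pairing of the libraries by number was seen: deviations of same-numbered libraries correlated at -0.01, -0.02 and -0.04. With 3 libraries a group this check cannot exclude a shared batch.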

Additional observations from a re-analysis of the deposited data

How the results depend on the processing

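The call was kept in all 15 alternative fits by 113 of the 143 called members, 95 higher and 18 lower, and none of the 143 reversed in any of them, while 10 of the 24 others gained a call in at least 1. Upper quartile scaling raised the median of all genes by 0.19 on the log2 scale and the share of calls that were higher among the members from 83.9% to 87.4%. With the replicate number as a block, 116 members were higher and 22 lower, with a median log2 fold change of 0.75, and 5 calls were lost; the exosome, Integrator, paraspeckle, decay, microRNA and m6A lists had 16, 17, 15, 8, 9 and 4 genes called. The members' median was 0.73 with DESeq2 and with RLE factors, 0.93 with upper quartile factors, 0.63 with no filter on low counts and 0.78 with at least 1 CPM in 3 libraries. Leaving out 1 library at a time gave 102 to 114 higher members, 20 to 24 lower, medians of 0.76 to 0.77, and 2 to 5 m6A genes called. The m6A list had 2 at an adjusted p under 0.01.

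Other member rules changed the number of genes taken, the counts called and the median log2 fold change (in parentheses). A mean CPM of at least 1 gave 211 higher and 37 lower of 340 (median 0.81), at shares of counts of 0.193% in controls and 0.359% with 8p. A mean CPM of at least 10 gave 30 and 7 of 43 (0.57), at 0.118% and 0.235%. At least 3 CPM in each group gave 71 and 11 of 104 (0.59), at 0.150% and 0.285%. Members that overlap no other gene gave 62 and 10 of 82 (0.80), at 0.0787% and 0.136%. The share was 0.173% and 0.351% of counts without mitochondrially encoded genes, and 0.153% and 0.267% without MALAT1 and NEAT1.

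Reversals fell on genes not called. With no filter on low counts, the log2 fold change was -0.0864 for DNAJC3, -0.0586 for LINC00528, -0.0907 for PUM2 and -0.0679 for RPL21, and with upper quartile factors it was 0.0854 for CRNDE. Leaving out 1 library at a time gave -0.0794 to 0.0574 for DNAJC3, -0.0797 to 0.225 for LINC00528, -0.0380 to 0.0234 for PUM2, -0.0260 to 0.117 for RPL21 and -0.285 to 0.0415 for CRNDE. The cause was not tested. With 3 libraries a group and unequal depth, members near 3 CPM were the least precise.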

Other observations

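Of 173 tested lincRNA genes with a mean of 1 to 3 CPM, under the members' cut, 91 were higher (52.6%), 14 lower (8.09%) and 68 not called (edgeR, adjusted p under 0.05), with a median log2 fold change of 0.95. Of all 1801 genes tested at 1 to 3 CPM, 45.03% were higher and 15.55% lower, with a median of 0.64, so genes of this level leaned higher in general. The 966 protein-coding genes at 1 to 3 CPM counted 408 higher and 195 lower (median 0.55). Each group's own level bears on which genes enter such a range, and the difference between these classes was not tested.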
